A study of Mus musculus with 18 samples.

Results

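The oligonucleotides described here are 200 DNA words of 8 bases (8-mers) that hold the sequence TGCAA on the strand that carried modified cytosine. They pair the C/EBP half-site GCAA with a directly preceding thymine. An 8-mer was a member when TGCAA stood in it as written and not in its reverse complement. Of the 256 deposited 8-mers with TGCAA as written, 48 also held it in the reverse complement, and 8 held 7 consecutive bases of the composite of TGA and TGCAA. Both sets were left out, and the remaining 200 were all measured on every array and tested among 65121 8-mers. The rule used sequence alone, but it was set with earlier results of these data known.

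The assay was the protein binding microarray: tagged protein is incubated on a slide of double-stranded DNA probes, and what stays bound is read by fluorescence. The modified DNA was made double-stranded by primer extension with 5-methylcytosine (5mC) or 5-hydroxymethylcytosine (5hmC), and the comparison DNA with unmodified cytosine (C). In 5mC and 5hmC DNA every cytosine of the synthesized strand was modified and the printed strand kept plain cytosine, a state called hemi-modified. The 3 mouse proteins were CREB1, ATF1 and JUND, each a DNA-binding domain with a glutathione S-transferase tag, synthesized in a cell-free system, so no full-length protein, partner protein or cell was present. Each protein was measured with each of the 3 kinds of DNA on 2 arrays, 18 arrays in 9 groups. No label says that a group's 2 arrays used separate preparations, so the p-values reflect array-to-array spread alone, and this may be technical.

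CREB1, ATF1 and JUND are basic leucine zipper (bZIP) proteins, which bind as dimers and read one half-site per subunit. CREB1 and ATF1 are close relatives known for the cAMP response element, a palindrome with a central CpG, and JUND is a subunit of the AP-1 factor. GCAA is the half-site of the C/EBP family of bZIP proteins, and methylation of a CpG directly in front of it is known to raise binding by some bZIP proteins. Thymine carries a methyl group at the same ring position as 5mC, and in the members it stands where that CpG cytosine would be. The only cytosine of TGCAA on the written strand is the one inside GCAA.

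Values are z-scores, which the authors deposited for each 8-mer on each array, with a median near 0. Each 8-mer is written as it reads on the synthesized, modified strand. The 8-mers below are shown because the results turn on them. Capitals mark TGCAA, and in a reverse complement they mark the complement TTGCA.
Largest mean with 5mC and with 5hmC for CREB1: ttaTGCAA
Its reverse complement: TTGCAtaa
Its partner with cytosine in place of the thymine: ttaCGCAA
Preceded by TA and followed by T: taTGCAAt
Preceded by TA and followed by C: taTGCAAc
Preceded by CTA: ctaTGCAA
Higher with 5hmC than with 5mC: ccaTGCAA
The reverse complement of that one: TTGCAtgg
Called for ATF1 with 5mC: TGCAAtaa
Holding ACGT, the core of the cAMP response element: acgTGCAA

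Each 8-mer is read from many longer probes, so its value is set in many flanks. The members were carried by 12 to 23 probes each (median 17), on 1176 probes of 35 variable bases in all. Of those probes, 842 held 2 or more overlapping members, so the 200 values are not independent. The following probes are shown on the synthesized strand and were ranked by mean signal on the CREB1 5hmC arrays. They were the highest and the lowest among the 18 that carry ttaTGCAA, and the highest among the 17 that carry ccaTGCAA.
Highest for ttaTGCAA: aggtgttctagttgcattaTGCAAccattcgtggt
Lowest for ttaTGCAA: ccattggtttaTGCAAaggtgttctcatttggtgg
Highest for ccaTGCAA: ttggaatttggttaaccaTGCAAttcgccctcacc
On a log2 scale relative to each array's median probe, the first gave 4.94 and 3.25 on the CREB1 5mC arrays, 5.19 and 4.51 on the 5hmC arrays and 0.42 and 0.65 on the C arrays. The second gave -0.06 and -3.05 with 5mC, -3.07 and -0.73 with 5hmC, and -0.04 and -0.18 with C. The third gave 3.95 and 2.65 with 5mC, 4.40 and 4.14 with 5hmC, and 0.57 and 0.36 with C. The same 8-mer therefore stood far above the array median in some flanks and not in others. TGCAA starts at position 20 of the first probe and at position 12 of the second, counted from the 5′ end as shown. It is followed by C in the first and by A in the second. The first probe also holds TTGCA, the reverse complement of TGCAA, upstream of ttaTGCAA, and the second does not. Which of these features went with the signal was not tested.

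The arrays differed in quality in ways that touch the members. Median probe signal lay between 519 and 8014, the ratio of signal to local background between 1.62 and 14.6, and at most 84 probes an array were saturated. Across the members the 2 arrays of a group correlated with Pearson's r of 0.87 for CREB1 5mC, 0.85 for CREB1 5hmC and 0.91 for CREB1 C, and with 0.40 for JUND 5hmC, where one array had 15.9% of its probes at or below background. On CREB1 5mC DNA the first array gave higher values than the second, with member medians of 6.52 and 3.69.

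The question of the first comparison was whether CREB1 binds the half-site behind thymine better when the synthesized strand carries modified cytosine. With 5mC the members had a median z-score of 4.93, and with 5hmC of 3.82, against 0.26 on C DNA. In the limma fit over all 18 arrays, 161 of the 200 members rose with 5mC and 0 fell, where 2.25% of all 65121 8-mers rose and 6.21% fell. With 5hmC 114 rose and 0 fell, where 1.12% of all 8-mers rose and 6.78% fell. At an unadjusted p under 0.05, 0 members were lower with 5mC and 1 was lower with 5hmC in the same limma fit. In either direction 191 and 160 members passed that level, and 12103 and 12144 of all 65121 8-mers. The median difference over the members was 4.55 with 5mC and 3.45 with 5hmC, against -0.06 over all 8-mers in each case. A z-score of 4 or more was reached by 153 and 89 members on the 5mC arrays and by 99 and 94 on the 5hmC arrays, but by 4 and 7 on the C arrays. Among all 8-mers it was reached by 2.53% and 1.96% on the 5mC arrays, 1.72% and 1.80% on the 5hmC arrays, and 4.25% and 5.99% on the C arrays. Of the 114 members that rose with 5hmC, 109 also rose with 5mC, which is 95.6% of the 5hmC calls and 67.7% of the 5mC calls. Both comparisons share the C arrays. Leaving out the first 5mC array lowered the 5mC count to 101, and the count with 5hmC was 72 without the first 5hmC array and 68 without the second C array. On log2 probe signal without the probes that also hold another bZIP site, the counts were 102 with 5mC and 39 with 5hmC. Here and below such a site was ACGT, TGACG or CGCAA on either strand. Probes with a further copy of TGCAA, an AP-1 site or the composite were not removed by it. After quantile normalization 107 rose with 5mC, and with the CREB1 arrays alone in the fit 59 rose with 5hmC.

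The member ttaTGCAA had z-scores of 37.2 and 23.7 on the CREB1 5mC arrays, 24.6 and 59.9 on the 5hmC arrays, and 1.68 and 3.14 on the C arrays. All 4 modified arrays lay above both C arrays, but the 2 arrays of each modified group were far apart. The difference was 28.1 ± 7.38 (SE) with 5mC (limma adjusted p = 0.0182) and 39.9 ± 7.38 with 5hmC (limma adjusted p = 0.00101). The call with 5mC was lost in 3 of the 4 fits that left out 1 array (limma adjusted p up to 0.168), and the call with 5hmC was kept in all 4.

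The member taTGCAAt had 24.4 and 12.7 with 5mC, 16.8 and 27.3 with 5hmC, and -0.41 and -0.43 with C. Here the C arrays lay below the median 8-mer and agreed closely. It rose by 19.0 ± 3.17 with 5mC (limma adjusted p = 0.000335) and by 22.4 ± 3.17 with 5hmC (limma adjusted p = 5.55e-05). Its neighbour taTGCAAc had 26.0 and 14.1 with 5mC, 14.8 and 39.2 with 5hmC, and 0.76 and 2.38 with C. That 8-mer rose in both comparisons (limma adjusted p = 0.0244 with 5mC and 0.0021 with 5hmC), the first of which was lost in 3 of 4 fits without 1 array. The member ctaTGCAA had 29.7 and 12.3 with 5mC, 15.5 and 19.5 with 5hmC, and 0.54 and 0.20 with C, and it rose in both (limma adjusted p = 0.000207 and 0.0015). With the CREB1 arrays alone in the fit, both calls of ttaTGCAA, taTGCAAt, taTGCAAc and ctaTGCAA were lost. The limma adjusted p was then 0.114 with 5mC and 0.0615 with 5hmC for taTGCAAt, and 0.0766 and 0.15 for ctaTGCAA.

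Smaller rises were seen for members with other bases in front. The member acaTGCAA had 12.6 and 6.89 with 5mC, 7.75 and 9.05 with 5hmC, and 1.68 and 0.66 with C. It rose by 8.59 ± 1.52 with 5mC (limma adjusted p = 0.000589) and by 7.23 ± 1.52 with 5hmC (limma adjusted p = 0.00324), and the modified arrays did not overlap the C arrays. The 5hmC call was lost with the CREB1 arrays alone, and both calls on log2 signal without probes holding another bZIP site. The member gtgTGCAA, whose only written-strand cytosine is the one in GCAA, had 11.2 and 3.09 with 5mC, 6.17 and 4.22 with 5hmC, and 0.53 and 1.09 with C. It rose with 5mC (6.34 ± 1.54, limma adjusted p = 0.00994), and its difference of 4.39 with 5hmC did not pass (limma adjusted p = 0.0955). The call of gtgTGCAA with 5mC was lost without either C array or without the first 5mC array (limma adjusted p up to 0.202).

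The values differed widely with the bases around TGCAA. Among the 40 members with adenine directly before it the median z-score was 7.50 with 5mC, 7.78 with 5hmC and 1.08 with C. Among the 48 with guanine there the medians were 5.14, 4.12 and 0.28, and among the 48 with cytosine there they were 3.49, 1.21 and -0.44. The cytosine group was thus the lowest on all 3 kinds of DNA. The 8 members preceded by TA stood highest of all pairs of preceding bases, with medians of 13.5 with 5mC and 13.7 with 5hmC against 0.90 with C. The 8 preceded by CA had 8.13 and 10.2, against 1.36 with C, and the 8 preceded by TG had 7.91 and 8.26, against 0.22 with C. With AC in front the medians were 3.20 and 1.05, against -0.34 with C. By array, the medians with TA in front were 18.0 and 9.11 with 5mC and 11.0 and 16.2 with 5hmC. With TG they were 11.3 and 4.28 with 5mC and 10.9 and 5.10 with 5hmC. The order of 5mC and 5hmC in these groups thus depends on the array taken. These medians describe the groups, and the differences between groups were not tested.

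The groups by the base after TGCAA also differed. The 39 members followed by thymine had medians of 11.1 with 5mC and 8.18 with 5hmC, against 0.05 with C. All 39 rose with 5mC and 38 of 39 rose with 5hmC. The 39 followed by cytosine had medians of 7.32 and 5.51, against 0.37 with C, and 37 rose with 5mC and 30 with 5hmC. Those followed by adenine had 3.51 and 2.65, against 0.53 with C, and 18 of 39 rose with 5mC and 6 of 39 with 5hmC. Those followed by guanine had 3.59 and 2.48, against 0.21 with C, and 31 and 17 of 39 rose. The 2 groups with a pyrimidine after the half-site thus had the higher medians on modified DNA, while the C DNA medians of all 4 groups lay between 0.05 and 0.53. For both sides at once, the 7 members with adenine before and thymine after had medians of 15.2 with 5mC and 19.0 with 5hmC, against 1.47 with C. The 8 members with cytosine before and adenine after had low medians of 1.18 and 0.96, against -0.10 with C. The 8 with cytosine before and guanine after had 1.60 and 0.20, against -0.87 with C.

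The median did not move one way with the number of further cytosines on the modified strand. The 75 members whose only modified cytosine was the one in TGCAA had CREB1 medians of 4.56 with 5mC and 3.96 with 5hmC, against 0.22 with C. The 88 members with 1 more had 5.56 and 3.96, against 0.41 with C. The 33 with 2 more had 4.36 and 3.18, against -0.03 with C, and the 4 with 3 more had 6.35 and 4.76, against 0.13 with C. The 21 members that hold a CpG had 7.99 and 5.21, against 1.48 with C, and the 179 without one had 4.78 and 3.65, against 0.12 with C. Of the members without CpG, 145 rose with 5mC and 102 with 5hmC.

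A few members did not follow the others. The member acgTGCAA contains ACGT, the core of the cAMP response element, and was the highest of all members on C DNA for CREB1 and for ATF1. For CREB1 it had 20.7 and 10.0 with 5mC, 10.0 and 7.93 with 5hmC, and 16.9 and 20.5 with C. Its difference was -3.36 ± 3.13 with 5mC (limma adjusted p = 0.661) and -9.71 ± 3.13 with 5hmC (limma adjusted p = 0.0656), and neither passed the test. The member aTGCAAac had 5.85 and 5.96 with 5mC, 6.58 and 4.49 with 5hmC, and 6.12 and 6.05 with C, close to the same on all DNA. The member aTGCAAat is the octamer that POU domain proteins bind, read on the written strand. It had 5.47 and 2.96 with 5mC, 4.60 and 4.43 with 5hmC, and 1.60 and 0.00 with C, and its differences of 3.41 and 3.71 did not pass (limma adjusted p = 0.0783 and 0.0534).

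The second question was whether CREB1 bound the members differently with 5hmC than with 5mC. In this comparison 1 member was higher with 5hmC and 11 were lower, where 0.186% of all 8-mers were higher and 0.766% lower, and the median difference was -1.04. The 1 higher member was ccaTGCAA, with 17.8 and 30.9 on the 5hmC arrays, 8.03 and 5.00 on the 5mC arrays, and 0.62 and 1.16 on the C arrays. Both 5hmC arrays lay above both 5mC arrays, and the difference was 17.9 ± 2.62 (limma adjusted p = 0.00121). It rose with 5hmC against C (23.5 ± 2.62, limma adjusted p = 3.12e-06) and not with 5mC against C (5.63 ± 2.62, limma adjusted p = 0.25). The call with 5hmC against C held under all 14 alternatives run. The call of ccaTGCAA with 5hmC against 5mC was lost with the CREB1 arrays alone and under every setting on log2 probe signal, where 0 members were higher in limma. Of the 11 lower members, 10 had cytosine directly before TGCAA, where it forms no CpG but is itself modified. Among them cTGCAAtg had 5.87 and 9.01 with 5hmC and 16.1 and 10.5 with 5mC (difference -5.86 ± 1.35, limma adjusted p = 0.0409), and it was picked after its values were seen. The direction of this comparison rested on single arrays. Without the first 5mC array the median difference turned to 0.38, with 5 higher and 5 lower, and without the second 5mC array 2 were higher and 30 lower. Without the first 5hmC array most of the few calls were higher, but the median difference was -1.25. Without the second 5hmC array it was -1.06. On log2 probe signal 2 were lower, and 0 were called without the probes holding another bZIP site.

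Each member was set against its reverse complement on the same array, to compare the site with the modification on either strand. In the reverse complement TTGCA is on the modified strand, so the same double-stranded site has its modified cytosine on the other side. The reverse complement is also read from other probes, in the other orientation on the probe and with other flanking cytosines modified. The test cannot tell these apart from the strand of the modification. The effect of 5mC on CREB1 was larger for the member than for its reverse complement in 99 of 200 pairs and smaller in 0, where 4.43% of all 32225 pairs were called in either direction (other pairs were set in alphabetical order, so their direction has no meaning). For 5hmC it was larger in 63 and smaller in 0, against 3.57% of all pairs. At an unadjusted p under 0.05, 1 pair was smaller in each case in the same limma fit. In either direction 150 and 125 of the 200 pairs passed that level, and 4968 and 4959 of all 32225 pairs. On their own, 25 of the 200 reverse complements rose with 5mC and 1 fell, and 6 rose and 1 fell with 5hmC. Their median z-scores were 1.00 with 5mC and 0.74 with 5hmC, against -0.10 with C. TTGCAtaa, the reverse complement of ttaTGCAA, had 3.88 and 0.87 with 5mC, 3.01 and 1.11 with 5hmC, and 2.03 and 0.55 with C. The effect on ttaTGCAA exceeded the effect on TTGCAtaa by 27.0 with 5mC (limma adjusted p = 0.0178) and by 39.1 with 5hmC (limma adjusted p = 0.00104). For ccaTGCAA against TTGCAtgg the excess was 22.4 with 5hmC (limma adjusted p = 5.12e-05) and 4.97 with 5mC (limma adjusted p = 0.427). The count for 5mC fell to 44 without the first 5mC array and to 54 without the second C array, and the count for 5hmC to 37 without the second C array and to 40 without the second 5hmC array. On log2 signal the counts were 53 with 5mC and 26 with 5hmC, and 16 and 5 without probes holding another bZIP site.

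The probe signals, which the z-scores tracked, were also compared by strand without any 8-mer score. The 217 probes with ATGCAA on the synthesized strand and not on the printed one had a median log2 signal over the array median of 1.86 and 1.16 on CREB1 5mC arrays, 1.42 and 1.08 on 5hmC arrays, and 0.40 and 0.28 on C arrays. The 215 probes with ATGCAA on the printed strand had 0.65 and 0.13, 0.45 and 0.12, and -0.09 and 0.04 in the same order. With GTGCAA the 296 probes of the synthesized strand had 1.64 and 0.80 with 5mC, 1.15 and 0.59 with 5hmC, and 0.13 and 0.03 with C. The 284 of the printed strand had 0.19 and 0.09, 0.14 and 0.07, and -0.17 and -0.02. With CTGCAA the gap was smaller: 0.86 and 0.63, 0.42 and 0.21, and -0.32 and -0.19 for 288 synthesized-strand probes. The 303 of the printed strand had 0.29 and 0.20, 0.13 and 0.08, and -0.13 and -0.13. With ACTGCAA the printed strand was higher on the first 5hmC array (0.43 against 0.35). The level also moved with the place in the probe, counted from the 5′ end of the variable bases on the synthesized strand. Probes whose base before TGCAA lay at positions 1 to 5 had 0.61 and 0.38 with 5mC, against -0.10 and -0.04 with C. At positions 21 to 25 they had 2.39 and 1.52, against 0.14 and -0.03 with C, and at positions 26 to 30 they had 1.27 and 0.63, against -0.01 and 0.01 with C. On 5hmC DNA the positions 1 to 5 gave 0.22 and 0.20 and the positions 21 to 25 gave 1.77 and 1.22. Values on C DNA stayed within -0.10 and 0.21 at all positions.

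To compare the thymine with other bases, each member was matched to the 8-mers that differ from it in that base alone. On 5mC and 5hmC DNA the cytosine in that place was itself modified, so the cytosine partner held a further modified base. Tests of thymine against cytosine compare the member with that partner. With 5mC the median CREB1 z-score was 4.93 with thymine, 12.0 with cytosine, 2.02 with adenine and 1.02 with guanine in that place. With 5hmC the medians were 3.82 with thymine, 2.50 with cytosine, 1.39 with adenine and 0.66 with guanine. On C DNA they were 0.26 with thymine, 1.02 with cytosine, -0.14 with adenine and -0.13 with guanine. By these medians over all members, thymine stood between the modified cytosine and the purines on 5mC DNA. It stood above the modified cytosine and the purines on 5hmC DNA. The member was higher than its cytosine partner in 18 of 200 pairs with 5mC and in 150 of 200 with 5hmC, against 45 of 200 on C DNA.

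The differences of effects were tested in a fit over all pairs of 8-mers that differ by 1 thymine. The rise with 5mC was smaller with thymine than with cytosine in 98 of 200 members and larger in 1 (cccTGCAA, picked after its values were seen), where 4.52% of 128835 such pairs were smaller and 3.04% larger. The rise with 5hmC was larger with thymine in 16 and smaller in 0, where 4.36% of the pairs were larger and 3.05% smaller. At an unadjusted p under 0.05, 1 member was smaller in that limma fit, and 24196 of the 128835 pairs passed in either direction. This difference with 5hmC was positive in 173 members and negative in 27. Among the 7 members with adenine before and thymine after TGCAA its median was -8.51, and 0 of them were called. Set against the mean of adenine and guanine, the rise was larger with thymine in 99 members and smaller in 0 with 5mC (3.75% larger and 5.0% smaller among 130301 pairs), and larger in 73 and smaller in 1 with 5hmC (4.3% larger and 4.03% smaller). At an unadjusted p under 0.05, 1 member was smaller with 5mC in that limma fit, and 24529 of the 130301 pairs passed in either direction. The 1 member whose rise with 5hmC was smaller is acgTGCAA (-11.9, limma adjusted p = 0.000489), in which thymine completes ACGT. After quantile normalization the count against cytosine with 5hmC turned to 1 larger and 2 smaller, while the median difference was 1.94. On log2 probe signal it was 36 larger and 0 smaller with 5hmC, and 2 larger and 16 smaller with 5mC. Without 1 array the calls against cytosine numbered 58 to 110 with 5mC, the lowest without the first 5mC array, and 4 to 10 with 5hmC, the lowest without the first 5hmC array. Against the purines the calls with 5mC and 5hmC numbered 47 and 30 on log2 signal, 13 and 9 without probes holding another bZIP site, and 40 and 48 after quantile normalization. They fell to 49 without the first 5mC array and to 40 without the second 5hmC array.

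The partners show how far single members were from that order. The partner ttaCGCAA had a mean of 47.4 with 5mC, 26.6 with 5hmC and 19.1 with C, and ttaTGCAA had 30.5, 42.3 and 2.41. The rise with 5mC did not differ beyond the spread (thymine minus cytosine -0.25, limma adjusted p = 0.995), and the rise with 5hmC was larger with thymine by 32.4 (limma adjusted p = 0.0386). For ccaTGCAA the means were 6.51 with 5mC and 24.4 with 5hmC, against 0.89 with C, and for ccaCGCAA they were 43.7 and 17.3, against 3.29 with C. Its rise with 5mC was smaller with thymine (difference -34.8 on the z scale, limma adjusted p = 0.000144), and its rise with 5hmC did not pass (9.50, limma adjusted p = 0.37). Over the whole table, 234 of the 255 8-mers with the half-site after cytosine rose with 5mC and 1 rose with 5hmC, against 161 and 114 of 200 after thymine. The difference with 5hmC was positive in 220 of the 255 after cytosine (median 1.21) and in 197 of the 200 after thymine (median 3.45). Their C DNA medians were 0.91 and 0.26. Composite 8-mers were left out of the thymine set alone, and the sets were not tested against each other. Of the 512 with the half-site after a purine, 126 rose with 5mC and 58 with 5hmC.

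The same comparison for ATF1 gave fewer calls. Its median z-scores were 2.89 with 5mC and 1.99 with 5hmC, against 0.36 with C. With 5mC 52 members rose and 0 fell, where 1.19% of all 8-mers rose and 2.06% fell, and with 5hmC 2 rose and 0 fell, where 0.0998% rose and 2.08% fell. At an unadjusted p under 0.05, 0 members were lower in either limma comparison, 127 were higher with 5mC and 42 with 5hmC. Of all 65121 8-mers, 11275 and 9179 passed that level in either direction. The member TGCAAtaa had 10.7 and 10.4 with 5mC, 9.70 and 7.03 with 5hmC, and -0.38 and 0.78 with C. All 4 modified arrays lay far above both C arrays, and the rise was 10.3 ± 2.46 with 5mC (limma adjusted p = 0.0267) and the difference of 8.17 ± 2.46 with 5hmC did not pass (limma adjusted p = 0.0937). The member gTGCAAta had 10.6 and 11.3 with 5mC, 6.94 and 6.09 with 5hmC, and 0.86 and 0.51 with C, and rose with 5mC (limma adjusted p = 0.0478). TGCAAcac had 9.15 and 8.95 with 5mC against 0.14 and 0.55 with C (limma adjusted p = 0.00454). The members that rose with 5hmC were TGCAAttt, with 2.65 and 3.08 against -0.80 and -0.55 with C (limma adjusted p = 0.0134), and TGCAAtta, with 4.18 and 3.77 against -0.13 and -0.43 with C (limma adjusted p = 0.0355). The ATF1 calls of these 5 members were lost whenever any 1 ATF1 array of the comparison was left out (limma adjusted p up to 0.271).

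By the base before TGCAA, the ATF1 medians with adenine were 4.65 with 5mC and 4.07 with 5hmC, against 1.35 with C. With guanine they were 2.82 and 2.04, against 0.49 with C, and with cytosine 2.34 and 0.89, against -0.35 with C. The calls had another distribution, and 29 of the 52 came from the 48 members with cytosine before TGCAA and 3 from the 40 with adenine. The fit shares 1 spread per 8-mer among all groups. For ttaTGCAA the shared SE was 7.38, and its ATF1 values of 7.49 and 6.84 with 5mC against 2.65 and 2.52 with C were not called (limma adjusted p = 0.82). With the ATF1 arrays alone in the fit, 122 members rose with 5mC and 32 with 5hmC. With the CREB1 arrays alone, 117 rose with 5mC and 59 with 5hmC, so ATF1 had fewer calls there only with 5hmC. With 1 ATF1 array left out, the counts were 1 to 6 with 5mC and 0 with 5hmC. Between 5hmC and 5mC, 0 members were higher and 3 were lower, where 0.134% of all 8-mers were higher and 0.591% lower, with 1 higher at an unadjusted p under 0.05 in limma. In either direction 51 members passed that level, and 10633 of all 65121 8-mers. The 3 lower members were TGCAAcgc, TGCAAgcg and cTGCAAcg, picked after their values were seen, and each holds a CpG outside TGCAA. In limma all 3 calls were lost with the replicate block, with any 1 array of the comparison left out, and on log2 probe signal without normexp, while 36 members were lower with normexp.

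The strand test gave 24 members with a larger ATF1 rise with 5mC than their reverse complements and 0 with a smaller one, where 1.46% of all pairs were called. With 5hmC 0 were called, where 0.0403% of all pairs were, and 31 were larger and 0 smaller at an unadjusted p under 0.05 in limma. Of all 32225 pairs, 2900 passed that level in either direction. The 24 calls fell to 0 in each of the 4 fits without 1 ATF1 array, and with the ATF1 arrays alone there were 75. Of the 52 members that rose for ATF1 with 5mC, 49 also rose for CREB1, which is 94.2% of the ATF1 calls and 30.4% of the CREB1 calls. Across the 200 members the rise with 5mC in CREB1 and in ATF1 correlated with Pearson's r of 0.80 and Spearman's rho of 0.77, and the rise with 5hmC with 0.84 and 0.78. The 8-mers share probes and the arrays share their DNA design, so these values are descriptions across 8-mers.

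The difference between CREB1 and ATF1 was tested as an interaction. The rise with 5mC was larger for CREB1 in 3 members (cTGCAAtg, TGCAAtgg and tcTGCAAt, picked after their values were seen) and smaller in 0, where 0.02% of all 8-mers were larger and 0.252% smaller. The rise with 5hmC was larger for CREB1 in 1 member and smaller in 0, where 0.00461% were larger and 0.21% smaller. At an unadjusted p under 0.05 the limma counts were 57 larger with 5mC, 63 larger with 5hmC, and 0 smaller in both. Of all 65121 8-mers, 3513 and 3530 passed that level in either direction. The member ccaTGCAA was the 1 called with 5hmC. Its ATF1 values were 4.37 and 5.54 with 5hmC, 2.95 and 5.71 with 5mC, and 0.47 and 0.00 with C, so that ATF1 did not show the gap between 5hmC and 5mC that CREB1 had. The excess of the CREB1 rise was 18.8 (limma adjusted p = 0.034). Each of these counts was 0 when any 1 ATF1 array was left out, after quantile normalization, on log2 probe signal and with only the CREB1 and ATF1 arrays. The 5mC count was also 0 without the first CREB1 5mC array and 38 without the second, and the 5hmC count 0 without the second CREB1 C array.

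JUND gave low values for most members. Its median z-scores were 0.82 with 5mC and 0.64 with 5hmC, against 0.41 with C, and a z-score of 4 or more was reached by 12 and 8 members on the 5mC arrays, 0 and 3 on the 5hmC arrays and 0 and 0 on the C arrays. Among all 8-mers it was reached by 0.978% and 0.981% with 5mC, 0.564% and 1.25% with 5hmC, and 1.59% and 0.375% with C. With 5mC 3 members rose and 0 fell, where 0.799% of all 8-mers rose and 0.244% fell, and 25 were higher and 2 lower at an unadjusted p under 0.05 in limma. Of all 65121 8-mers, 10844 passed that level in either direction, a larger share than among the 200 members. The 3 members were TGCAAata, TGCAAggc and atcTGCAA. TGCAAata had 6.61 and 7.88 with 5mC, against 2.29 and 2.09 with C (limma adjusted p = 0.0384). TGCAAggc passed with a limma adjusted p of 0.0448 and atcTGCAA with 0.0339. With 5hmC 0 members passed, where 0.0% of all 8-mers did, and 5 were higher and 0 lower at an unadjusted p under 0.05 in limma. This too was a smaller share than in the whole table, where 6123 passed that level in either direction. Between 5hmC and 5mC, 0 were higher and 2 lower, where 0.946% of all 8-mers were higher and 2.16% lower, and 4 were higher at an unadjusted p under 0.05 in limma. In either direction 21 members passed that level, and 12932 of all 65121 8-mers. The 2 members called lower were TGCAAata (limma adjusted p = 0.018) and TGCAAggc (limma adjusted p = 0.049). The count of 3 became 0 or 1 without 1 JUND array. The count of 2 became 0 without the second 5mC or the second 5hmC array, and both became 0 on log2 probe signal.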

How the data were processed

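Per the file headers, each of 18 arrays came with the median signal and median background of 40330 probes (35 variable bases), a linear intensity that the authors deposited. The authors also deposited, for 65530 of 65536 8-mers, a score per array named a z-score. Its calculation, the scanner and the imaging program were not given in the sources used here. Across 8-mers this value tracked the median signal, less background, over probes carrying the 8-mer on the synthesized strand (Spearman's rho 0.957 to 0.975) and less so over probes carrying it on the printed strand (-0.0808 to 0.509). An 8-mer is therefore read as the modified strand. No probe carried 409 8-mers, 6 deposited cells were null, and 65121 8-mers were tested.

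Tests were made with limma 3.58.1 (R 4.3.3) on z-scores of all arrays, fitting 9 group means with empirical Bayes moderation and a trend of variance on mean. They were two-sided, with Benjamini-Hochberg adjustment at 0.05 over all 8-mers. Each 8-mer had 1 spread shared by all groups (9 residual and 10.7 prior degrees of freedom). The strand test used the z-score of an 8-mer minus that of its reverse complement on the same array, over 32225 pairs. The test of the base before the half-site was planned over the pairs at the half-site, and was fitted instead over all pairs of 8-mers that differ by 1 thymine, so that p-values are not adjusted over the chosen 8-mers alone. Log2 probe signal was the signal minus background, floored at 1 and centred on the array median. Intervals from counts do not apply to arrays, and the 2 arrays per group limit the precision. The scripts were tested on simulated data. Other steps used Python 3.11.15, numpy 2.4.6 and pandas 2.3.3.

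The 8-mers named were 6 key sequences, from each of the 6 comparisons against C at most 5 rises and 5 falls, by size, that passed without overlap between arrays, and the 3 highest of each group, 26 in all. Members, lists and this rule were chosen with earlier results of these data known. Same-numbered arrays deviated together with correlations of -0.166 to 0.636, and the labels do not pair them, so no block was used. Alternatives were a block for the replicate number, no trend, only the arrays of the proteins compared, quantile normalization, at least 10 probes per 8-mer, log2 probe signal in place of the z-score (also with normexp background correction with an offset of 50, without saturated probes, and without probes holding another bZIP site) and leaving out each array in turn. Leaving out probes with the composite, and only pairs at the half-site, were added after seeing the data. Figures, genome coordinates and set tests were not used.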

Additional observations from a re-analysis of the deposited data

Results flagged for a closer look

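In 4 members the effect of modified cytosine on CREB1 differed from that on ATF1 by the test of the difference itself. With 5mC the CREB1 rise exceeded the ATF1 rise by 9.18 for cTGCAAtg (limma adjusted p = 0.0457). Its CREB1 z-scores were 16.1 and 10.5 with 5mC against -0.90 and -0.91 with C, and its ATF1 z-scores were 4.10 and 4.21 with 5mC against -0.73 and -1.01 with C. For TGCAAtgg the excess was 8.58 (limma adjusted p = 0.0371), with CREB1 values of 12.6 and 11.7 against -0.12 and -0.30 with C. For tcTGCAAt it was 6.01 (limma adjusted p = 0.0241), with CREB1 values of 10.7 and 8.89 against -1.27 and -0.40 with C. These 3 were picked by their values. With 5hmC the excess was 18.8 for ccaTGCAA (limma adjusted p = 0.034). None of the 4 differences passed with the log2 probe signal or with any 1 ATF1 array left out.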

How the results depend on the processing

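Counts below are members called in either direction. In the CREB1 and ATF1 comparisons with C the calls were higher with modified DNA under all settings run, except for 1 lower call for CREB1 with 5hmC without the first C array and without the trend. With the replicate block, which joins arrays only by number, the count for ATF1 5hmC against 5mC became 0, and 160 members rose for CREB1 with 5mC and 113 with 5hmC. No other count moved by over 1.5 times, and 51 of 52 calls of named 8-mers were kept. Of these 52, 25 were kept with only the arrays of the protein, 34 after quantile normalization, 40 on log2 probe signal and 24 there without probes holding another bZIP site. Without the trend, the count was 6 for ATF1 5hmC against C, 8 for ATF1 5hmC against 5mC, 27 for thymine minus cytosine with 5hmC, and 5 each for JUND 5mC against C and both CREB1 minus ATF1 tests. With only the arrays of the proteins compared, counts were 59 for CREB1 5hmC against C, 3 for CREB1 5hmC against 5mC, 122 for ATF1 5mC against C, 32 for ATF1 5hmC against C and 34 for ATF1 5hmC against 5mC. In that fit the ATF1 strand test gave 75 with 5mC and 11 with 5hmC, thymine minus cytosine with 5hmC gave 5, and JUND 5mC against C, JUND 5hmC against 5mC and both CREB1 minus ATF1 tests gave 0.

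After quantile normalization, counts were 107 for CREB1 5mC against C, 4 for CREB1 5hmC against 5mC, 29 for ATF1 5hmC against C and 19 for ATF1 5hmC against 5mC. The strand test gave 50 for CREB1 5mC, 54 for ATF1 5mC and 19 for ATF1 5hmC. Thymine minus cytosine gave 60 with 5mC and 3 with 5hmC. Most of these 3 calls were smaller with thymine, but the median difference stayed above 0 (1.94). Thymine minus purine gave 40 and 48, and both CREB1 minus ATF1 tests gave 0. The cause of these changes was not tested. With only pairs at the half-site the counts for thymine minus cytosine and minus purine moved by less than 1.5 times. With at least 10 probes, 2 members were called for CREB1 minus ATF1 with 5hmC.

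On log2 probe signal, counts were 75 for CREB1 5hmC against C, 2 for CREB1 5hmC against 5mC and 5 for ATF1 5hmC against C. The strand test gave 53 and 26 for CREB1 with 5mC and 5hmC and 11 for ATF1 with 5mC, thymine minus cytosine gave 18 and 36, and thymine minus purine 47 and 30. ATF1 5hmC against 5mC, JUND 5mC against C, JUND 5hmC against 5mC and both CREB1 minus ATF1 tests gave 0 there, and also without saturated probes, without probes holding the composite and without probes holding another bZIP site. Without saturated probes the other moved counts, in the same order, were 2 and 5, then 52, 25 and 12, then 16 and 37, then 44 and 32. Without probes holding the composite they were 73, 2 and 6, then 47, 21 and 9, then 20 and 34, then 40 and 27. Without probes holding another bZIP site counts were 102 for CREB1 5mC against C, 39 for CREB1 5hmC against C, 3 for ATF1 5mC against C, and 0 for CREB1 5hmC against 5mC and ATF1 5hmC against C. The strand test gave 16, 5 and 1 there and thymine minus purine 13 and 9. Thymine minus cytosine has no value under that setting, because CGCAA is among the sites removed. With normexp, counts were 137 for ATF1 5mC against C, 40 for ATF1 5hmC against C, 36 for ATF1 5hmC against 5mC, and 17 each for JUND 5mC against C and JUND 5hmC against 5mC. The ATF1 strand test then gave 84 and 9, thymine minus cytosine 22 and 34, thymine minus purine 42 with 5hmC, and both CREB1 minus ATF1 tests 0.

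Leaving out 1 array gave 101 to 173 calls for CREB1 5mC against C, 68 to 82 for CREB1 5hmC against C, 4 to 32 for CREB1 5hmC against 5mC and 1 to 6 for ATF1 5mC against C. ATF1 5hmC against C, ATF1 5hmC against 5mC, JUND 5hmC against C and both ATF1 strand tests gave 0 in each such fit. JUND gave 0 to 1 for 5mC against C and 0 to 3 for 5hmC against 5mC. The CREB1 strand test gave 44 to 113 with 5mC and 37 to 45 with 5hmC, thymine minus cytosine 58 to 110 and 4 to 10, thymine minus purine 49 to 101 and 40 to 63, and CREB1 minus ATF1 0 to 38 and 0 to 4. For CREB1 5hmC against 5mC most of the few calls without the first 5hmC array were higher, while the median difference stayed below 0 (-1.25). Over 728 refits of the named calls, 544 kept the call and 184 lost it, and none changed sign. The limits are 2 arrays per group, the shared spread, and signal close to background on the first CREB1 5hmC array and the second JUND 5hmC array.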

Other observations

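The 8 8-mers that were left out because they hold 7 bases of the composite had their own range. For CREB1, tgaTGCAA had a mean z-score of 139 ± 35.7 (SD, n = 2) with 5hmC and 56.8 ± 28.3 with 5mC, against 12.1 ± 4.69 with C. Among those that hold only part of the composite, gaTGCAAt averaged 39.7 ± 14.1 with 5hmC and 27.0 ± 11.3 with 5mC, against 1.78 ± 1.19 with C. At the low end agaTGCAA averaged 2.90 ± 0.65 with 5hmC and 3.68 ± 2.56 with 5mC, against -0.19 ± 0.14 with C.

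The members called for CREB1 with both bases and for ATF1 with 5mC numbered 33. Their CREB1 medians were 7.99 with 5mC and 5.43 with 5hmC, against -0.05 with C, and their ATF1 medians were 4.26 and 1.41, against 0.01 with C. They were selected by these values, so the medians are a description.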
